A study of Mus musculus with 18 samples.

Results

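A set of 10 genes widely read as marks of tubular injury and repair was followed across the kidneys of adult mice whose dams had been fed a low protein (LP) or a normal protein (NP) diet. They were taken by name from the 78239 genes listed in each count file: *Havcr1*, *Lcn2*, *Krt8*, *Krt18*, *Krt19*, *Krt20*, *Spp1*, *Clu*, *Sox9*, and *Timp1*. RNA came from a piece of the left kidney of 18 wild-type CD-1 mice, an outbred stock, at 6 wk, each sequenced as its own library. There were 5 males and 5 females from LP dams and 5 males and 3 females from NP dams. LP dams received 8% protein and NP dams 18% protein through gestation and lactation, and all offspring ate the 18% protein diet after weaning. By the study's methods, adult mice of all 4 groups were sedated with isoflurane to fit a monitor for transdermal GFR. FITC-sinistrin was given into a tail vein, and the mice were conscious during the measurement. GFR is reported for only part of each group, and the sources used here do not say which sequenced mice were measured. All adult mice also had injections of cationic ferritin, and their kidneys were perfused with saline. The wait between the final ferritin dose and collection was 90 min in males and 24 h in females, so sex and collection time cannot be told apart. The sources used here do not tie mice to litters, so litter mates could not be blocked. Each p-value treats the mice as independent, while diet was given to dams. A p-value for diet may thus be too small if litter mates are alike.

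Injury to the tubule, above all to its proximal segment, switches surviving epithelial cells to a repair state in which they lose transport functions, take on simple epithelial keratins, and secrete matrix and signaling proteins. KIM-1, the product of *Havcr1*, and NGAL, the product of *Lcn2*, are read in urine as injury markers for this reason. Several of the genes also have a healthy source in the kidney: *Krt8*, *Krt18*, and *Spp1* are made by distal nephron and collecting duct cells, and *Krt19* and *Krt20* by the urothelium that lines the renal pelvis. In RNA from a whole piece of kidney, fewer cells of a type and less RNA per cell cannot be told apart.

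The promoters of *Spp1*, *Havcr1*, and *Timp1* are shown for differences described below. *Spp1* differed between the sexes and *Havcr1* between single female libraries. *Timp1* differed between the diets in males, without being called. No window was found for *Clu*, which was also called between the sexes. Each line holds the 250 bases before the first listed start in RefSeq (GRCm38.p6; all 3 genes are on the plus strand), with capitals for letters that matched a searched motif.
*Spp1*, chr5:104434861-104435110: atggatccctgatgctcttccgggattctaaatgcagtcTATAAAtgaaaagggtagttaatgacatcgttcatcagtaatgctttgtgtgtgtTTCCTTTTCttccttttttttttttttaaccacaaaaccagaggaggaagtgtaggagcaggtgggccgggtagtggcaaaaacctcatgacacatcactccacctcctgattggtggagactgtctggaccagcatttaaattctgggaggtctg
*Havcr1*, chr11:46739973-46740222: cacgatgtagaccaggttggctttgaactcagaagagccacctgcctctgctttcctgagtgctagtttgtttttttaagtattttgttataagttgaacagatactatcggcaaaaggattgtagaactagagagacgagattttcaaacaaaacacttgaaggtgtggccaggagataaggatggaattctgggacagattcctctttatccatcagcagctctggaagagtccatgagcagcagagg
*Timp1*, chrX:20869916-20870165: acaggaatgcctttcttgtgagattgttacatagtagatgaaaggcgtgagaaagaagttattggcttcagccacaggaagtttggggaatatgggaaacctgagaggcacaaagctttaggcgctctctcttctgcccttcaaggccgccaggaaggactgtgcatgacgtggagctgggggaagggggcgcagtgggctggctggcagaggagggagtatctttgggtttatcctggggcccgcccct

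Windows were found for 7 of the 10 genes, 10 windows in all, and both strands were searched for 6 motifs, which did not overlap each other where they matched. The first *Spp1* window held the letters of an interferon element (GAAANNGAA, here on the minus strand) from 156 to 148 bases before the start and TATAAA from 211 to 206 bases before it. The *Krt20* window held TATAAA from 29 to 24 bases before the start. No other window of the 10 genes matched. Over 32851 windows of the same length, TATAAA was held by 12.4%, the interferon element by 7.13%, the STAT letters TTCNNNGAA by 7.02%, the AP-1 letters TGANTCA by 6.75%, the E-box CACGTG by 6.02%, and the NF-kB letters GGGNNTTCC by 4.98%. A match describes letters in these windows and is not a binding site.

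The libraries held 14050486 to 23562411 reads on genes. Levels are given as CPM, each gene's share of the library's counts after TMM scaling over the 18 libraries, and levels of different genes are compared as CPM per kb of exon. The labelled tissue was checked with 12 proximal tubule markers, none of which was at 0 in any library; their summed level was 13237 to 28975 CPM. Clustered over 12665 genes, LP female 1, LP female 2, and NP female 3 stood apart from the other 15 libraries at the first split, by both linkages tried. Results that rest on them are given with and without them.

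Per kb, *Spp1*, which encodes the secreted integrin ligand osteopontin, had the highest median level of the 10 genes over the 18 libraries, with 201 CPM per kb. It was followed by *Krt8* with 63.9, *Clu* with 35.4, *Krt18* with 18.1, *Havcr1* with 10.6, *Lcn2* with 5.15, *Krt19* with 2.45, and *Timp1* with 1.65 CPM per kb. *Sox9* and *Krt20* were lowest, with medians of 0.271 and 0.188 CPM per kb. The order differed between the sexes at 2 places. In females *Havcr1*, at 38.1, lay above *Krt18* at 19.8, and *Timp1*, at 2.13, above *Krt19* at 1.97 CPM per kb. In males *Krt18*, at 17.2, lay above *Havcr1* at 9.90, and *Krt19*, at 2.81, above *Timp1* at 1.48 CPM per kb. Over the 18 libraries the ranges of neighbours in the pooled order overlapped, but *Spp1* was above *Krt8* in every library. Of the 10, 7 had at least 10 counts in all 18 libraries, *Timp1* and *Sox9* in 16, and *Krt20* in 5. *Krt20* was therefore in no comparison across all genes, *Sox9* only in that of the females, and *Timp1* only in that of the males.

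**Figure D1:**
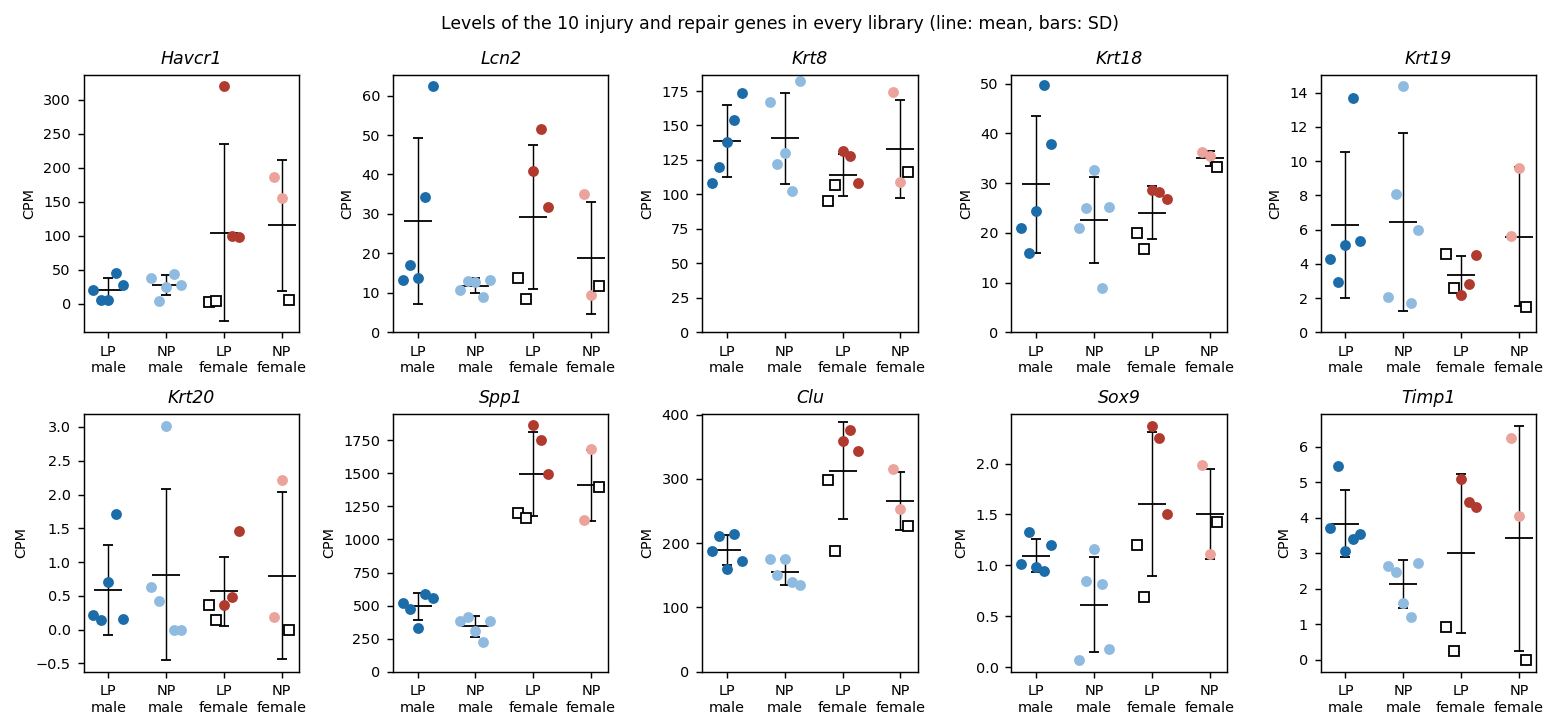
Level of each of the 10 genes in CPM (vertical axes, separate scale for each gene) in every library of the 4 groups, with the group mean as a line and the SD as bars; open squares are LP female 1, LP female 2, and NP female 3. *Spp1* was lower in all 10 males than in all 8 females, *Timp1* was higher in all 5 LP males than in all 5 NP males, and *Havcr1* was between 1.61 and 5.33 CPM in the open squares against 97.9 to 319.6 CPM in the other females.

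LP and NP males were compared first. None of the 8 genes that could be tested was called at an adjusted p under 0.05, but 4 of them, *Timp1*, *Lcn2*, *Spp1*, and *Clu*, had an unadjusted p under 0.05, and all 4 were higher in LP males. Over all 13181 genes tested, 0.0379% were called and 2.21% had an unadjusted p under 0.05 with a higher level in LP males. The count was 0 called and 4 under 0.05 with edgeR, DESeq2, and limma-voom alike. Since the 10 genes were chosen with earlier results of these data known, this count is a description.

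*Timp1* encodes a secreted inhibitor of matrix metalloproteinases. It was at 3.70, 5.46, 3.05, 3.42, and 3.56 CPM in LP males 1 to 5 and at 2.65, 2.47, 1.61, 1.22, and 2.74 CPM in NP males 1 to 5. Every LP male lay above every NP male. The log2 fold change was 0.84 (SE 0.26, unadjusted p = 0.00662, adjusted p = 0.9997, edgeR quasi-likelihood test), a 1.79-fold difference in means. The exact two-sided permutation test gave p = 0.00794, the smallest that 5 against 5 mice allow. *Timp1* rested on 18 to 76 counts per male library. With each male left out in turn, its log2 fold change ranged from 0.69 to 0.94 and its unadjusted p stayed under 0.05 in 10 of 10 fits. Up to 75 counts were assigned to *Syn1*, which overlaps *Timp1* on the opposite strand, and the non-directional reads cannot separate the strands there.

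*Lcn2* encodes a secreted lipocalin that binds iron-carrying siderophores and is made by injured distal nephron cells and by neutrophils. LP males 4 and 5 had 34.4 and 62.4 CPM, and LP males 1, 2, and 3 had 13.2, 17.04, and 13.7 CPM. NP males 1 to 5 had 10.7, 13.1, 12.8, 9.001, and 13.3 CPM. In 24 of 25 pairs the LP male was higher, but most of the difference in means lay in LP males 4 and 5. The log2 fold change was 1.27 (SE 0.39, unadjusted p = 0.00711, adjusted p = 0.9997, edgeR), or 2.41-fold, with an exact permutation p = 0.0159. Without LP males 4 and 5, which were picked for their *Lcn2* after the values were seen, it was 0.32 (SE 0.17, unadjusted p = 0.0924, edgeR). Summed over 10 neutrophil markers, the level was 11.2 to 29.9 CPM in LP males and 8.38 to 30.8 CPM in NP males, and it was 25.2 and 19.1 CPM in LP males 4 and 5. Of the 4 neutrophil markers tested, *Retnlg* alone had an unadjusted p under 0.05, with a log2 fold change of 0.82 (SE 0.35); *Mpo* and *Elane*, granule enzymes of neutrophil precursors, were at 0 to 1 count in every male. The part of neutrophils in the *Lcn2* values was not tested.

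*Spp1* was at 521.7, 477, 330.1, 589, and 554 CPM in LP males 1 to 5 and at 386, 417, 310.5, 221, and 386 CPM in NP males 1 to 5. The groups overlapped through LP male 3. Its log2 fold change was 0.53 (SE 0.19, unadjusted p = 0.0142, adjusted p = 0.9997, edgeR), or 1.44-fold, with an exact permutation p = 0.0476. *Clu* encodes clusterin, a secreted chaperone that rises in injured tubules. It had 189 ± 23.2 CPM (SD, n = 5) in LP males, from 160.5 to 213 CPM, and 155 ± 19.7 CPM (SD, n = 5) in NP males, from 135 to 176 CPM. The log2 fold change of *Clu* was 0.29 (SE 0.11, unadjusted p = 0.0224, adjusted p = 0.9997, edgeR), and its exact permutation p was 0.0556. For *Clu* the unadjusted p stayed under 0.05 in 6 of the 10 fits with a male left out and passed it without LP male 2, LP male 4, NP male 4, or NP male 5, reaching 0.0596. For *Spp1* and *Lcn2* it stayed under 0.05 in 10 of 10.

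The other 4 genes tested in males had an unadjusted p above 0.05 in edgeR. *Havcr1*, the receptor by which proximal tubule cells take up dying neighbours, was at 19.2, 4.57, 5.73, 44.9, and 27.9 CPM in LP males 1 to 5 and at 37.7, 4.15, 24.2, 43.2, and 27.1 CPM in NP males 1 to 5. Its values ran over the same range in both groups, with a log2 fold change of -0.39 (SE 0.62, unadjusted p = 0.54, edgeR). *Krt8* and *Krt18* encode the paired keratins of simple epithelia. *Krt8* had 139 ± 26.1 CPM in LP males and 141 ± 33.1 CPM in NP males (SD, n = 5 each), a log2 fold change of -0.01 (SE 0.17). *Krt18* had 29.8 ± 13.8 and 22.6 ± 8.69 CPM (SD, n = 5 each), and LP male 4 was highest at 49.8 CPM and NP male 4 lowest at 9.001 CPM. Its log2 fold change was 0.41 (SE 0.34, unadjusted p = 0.251, edgeR). *Krt19* had 6.28 ± 4.26 and 6.45 ± 5.19 CPM (SD, n = 5 each).

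*Sox9* encodes the transcription factor of repairing tubule cells. It had 14 to 22 counts in LP males and 1 to 18 counts in NP males, with 1 count in NP male 1 and 3 counts in NP male 5. That is 1.10 ± 0.164 CPM in LP males and 0.611 ± 0.468 CPM in NP males (SD, n = 5 each), with the LP male higher in 22 of 25 pairs and an exact permutation p = 0.0556. At a mean count of at least 10, which lets *Sox9* into the test, its log2 fold change was 0.83 (SE 0.53, unadjusted p = 0.139, edgeR).

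The order of the libraries showed how far single mice carried these values. LP male 4 had the highest level of the 10 males for 4 of the 10 genes, which were *Havcr1*, *Krt18*, *Spp1*, and *Clu*. NP male 4 was lowest, alone, for *Lcn2*, *Krt8*, *Krt18*, *Krt19*, *Spp1*, and *Timp1* and among the lowest 3 for 9 of the 10, yet it had the second highest *Havcr1* of the males. With LP males 4 and 5 left out, 2 genes had an unadjusted p under 0.05, *Timp1*, with a log2 fold change of 0.92 (SE 0.32), and *Havcr1*, with -1.47 (SE 0.66).

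**Figure D2:**
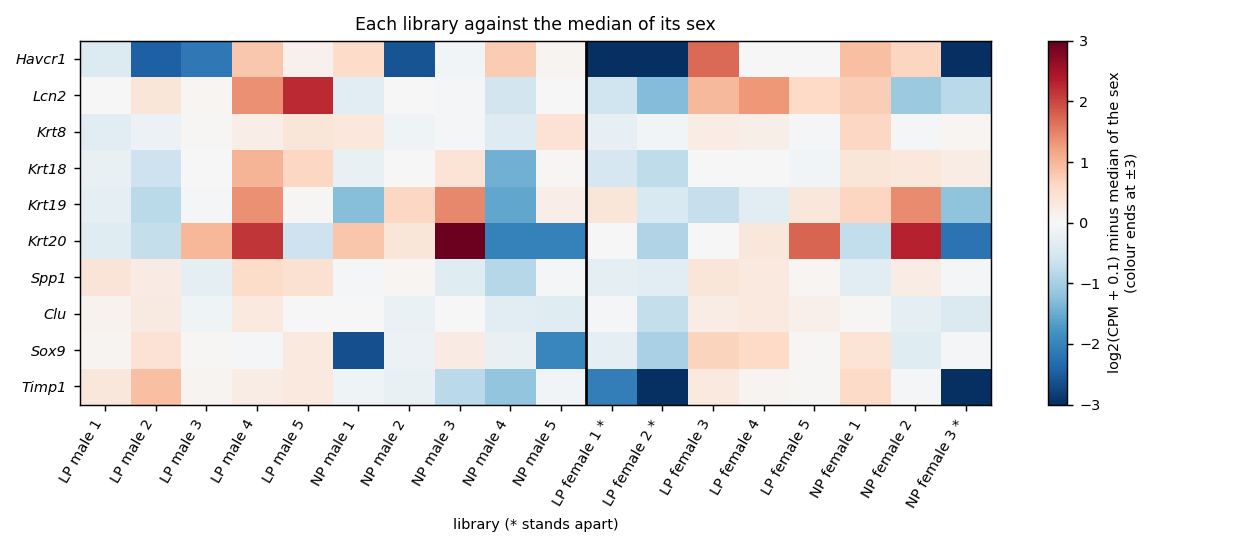
Each library (columns, grouped by sex and diet) against the median of its sex for the 10 genes (rows), as log2(CPM + 0.1) minus that median, with the colour scale ending at -3 and 3; asterisks mark the 3 libraries that stood apart. LP male 4 and LP male 5 are above the median for most genes, NP male 4 is below it for most, and *Havcr1* and *Timp1* are far below it in the 3 marked females.

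Among the binding partners and relatives of the 10 proteins, 19 of 24 listed genes were tested in males, and 2 had an unadjusted p under 0.05, *Mmp14* and *Mmp2*, both metalloproteinases and both higher in LP males. Their log2 fold changes were 0.54 (SE 0.19) for *Mmp14* and 0.64 (SE 0.29) for *Mmp2*. *Timp2* and *Timp3* had 0.17 (SE 0.24) and 0.09 (SE 0.10). Of 28 tested genes of injured proximal tubule cells, 3 had an unadjusted p under 0.05, all higher in LP males, with a median log2 fold change over the list of 0.14 against -0.00 over all genes; *Dcdc2a* had 0.46 (SE 0.12) and *Sox4* 0.49 (SE 0.18). Of 14 tested inflammatory and matrix genes of injury, *Fn1*, which encodes fibronectin, was the one under 0.05, with a log2 fold change of 0.49 (SE 0.17). Over all the other lists together, 137 of 174 genes were tested. None was called by edgeR, DESeq2, or limma-voom, and 16 higher and 3 lower in LP males had an unadjusted p under 0.05 with edgeR.

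Stromal cells also make *Timp1*, and none of their markers was called in males. All 6 tested stromal genes had a positive log2 fold change in males, and 4 had an unadjusted p under 0.05 in edgeR and DESeq2 and 1 in limma-voom, among them in edgeR *Pdgfrb* with 0.44 (SE 0.15) and *Col1a1* with 0.92 (SE 0.33). Their summed level over 7 genes was 128 to 314 CPM in LP males and 107 to 201 CPM in NP males, and none of the 7 was at 0 in a male. The sum did not follow *Timp1* in every library. LP male 2, which had the highest *Timp1*, had 264 CPM, and LP male 4 had 314 CPM. LP male 5, with 3.56 CPM of *Timp1*, had 128 CPM of the stromal genes, and NP male 3, with 1.61 CPM of *Timp1*, had 201 CPM. The part of stroma in the *Timp1* values was not tested. Of 8 tested macrophage genes none had an unadjusted p under 0.05 in males by any of the 3 tools.

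In females, none of the 8 genes tested was called between LP and NP mice, and 0% of all 13510 genes were called by edgeR. *Krt18* alone had an unadjusted p under 0.05, against 4.17% of all genes. DESeq2 and limma-voom also called none of the 8 genes and also had *Krt18* alone under 0.05. *Krt18* was at 20.0, 16.8, 28.6, 28.2, and 26.8 CPM in LP females 1 to 5 and at 36.3, 35.4, and 33.3 CPM in NP females 1 to 3. Every LP female lay below every NP female. The log2 fold change was -0.53 (SE 0.20, unadjusted p = 0.0256, adjusted p = 0.886, edgeR), and the exact two-sided permutation p was 0.0714, where 5 against 3 mice allow no less than 0.0179. Without the 3 libraries that stood apart it was -0.36 (SE 0.15, unadjusted p = 0.0453, edgeR). The unadjusted p stayed under 0.05 in 5 of the 8 fits with a female left out, rose past it without LP female 1, NP female 1, or NP female 2, and was 0.0734 at most.

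*Krt8*, the partner of *Krt18*, had 114 ± 15.4 CPM in LP females (SD, n = 5) and 133 ± 35.6 CPM in NP females (SD, n = 3), and the groups overlapped. Markers of the collecting duct, a healthy source of both keratins, had 2 of 7 tested genes under an unadjusted p of 0.05 in females, *Gata3* with a log2 fold change of -0.64 (SE 0.16) and *Aqp2*, the vasopressin-regulated water channel, with -0.74 (SE 0.20), both lower in LP females. Of the 7, 3 had a positive log2 fold change, and DESeq2 and limma-voom each had 1 gene higher under an unadjusted p of 0.05. The summed level of 8 collecting duct genes was 1320 to 1557 CPM in LP females and 1340 to 1573 CPM in NP females, with at most 1 gene at 0 in a library. *Calb1* was the most abundant of the 8, so the sum need not follow *Aqp2* or *Gata3*. The part of collecting duct cells in the *Krt18* values was not tested. Among 27 tested genes of injured proximal tubule cells, *Vim*, an intermediate filament of mesenchymal and repairing cells, was the one with an unadjusted p under 0.05, with a log2 fold change of -0.48 (SE 0.16). Over all the other lists, 128 of 174 genes were tested in females, none was called by the 3 tools, and 1 higher and 5 lower in LP females had an unadjusted p under 0.05 in edgeR.

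*Lcn2* was at 13.7, 8.34, 41.0, 51.6, and 31.7 CPM in LP females 1 to 5 and at 35.1, 9.55, and 11.8 CPM in NP females 1 to 3. The range was as wide within a diet as between them, with a log2 fold change of 0.65 (SE 0.63, unadjusted p = 0.329, edgeR). *Spp1* had 1496 ± 318 CPM in LP females (SD, n = 5) and 1410 ± 269 CPM in NP females (SD, n = 3), a log2 fold change of 0.09 (SE 0.22). *Clu* had 313 ± 75.7 CPM (SD, n = 5) and 265 ± 45.0 CPM (SD, n = 3), a log2 fold change of 0.25 (SE 0.24). *Sox9*, with 14 to 46 counts per female library, had 1.60 ± 0.711 CPM (SD, n = 5) and 1.505 ± 0.442 CPM (SD, n = 3).

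**Figure D3:**
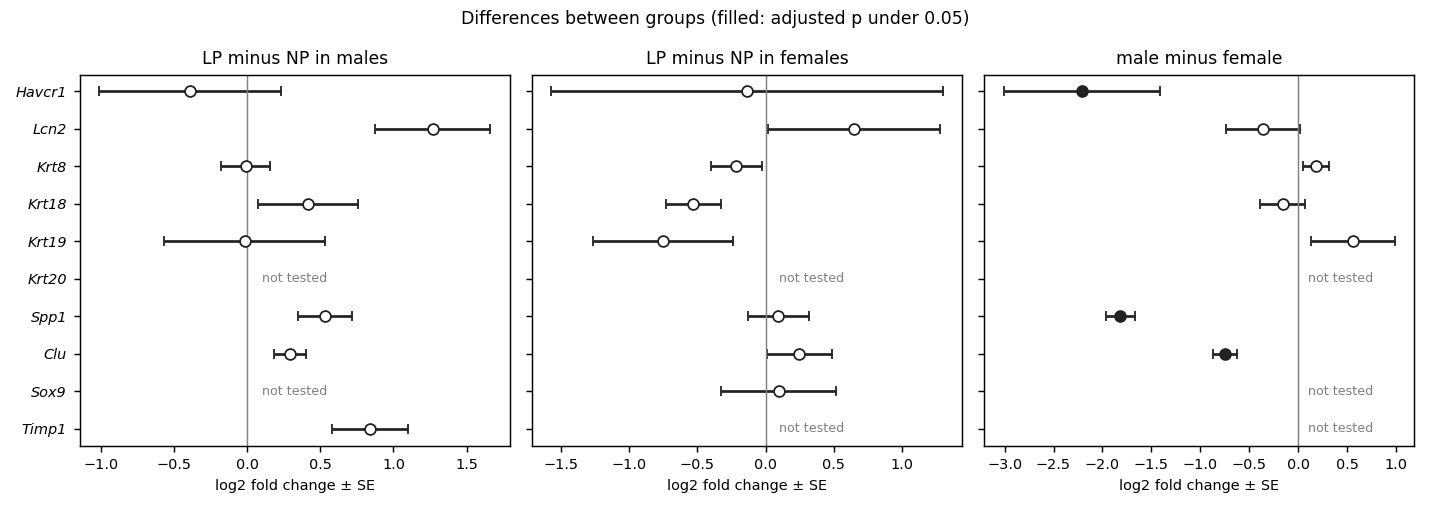
Log2 fold changes with SE (horizontal axes) of the 10 genes in 3 comparisons, LP minus NP in males, LP minus NP in females, and male minus female; filled points have an adjusted p under 0.05. *Timp1*, *Lcn2*, *Spp1*, and *Clu* lie above 0 in males without being called, *Havcr1* has the widest error in females, and *Spp1*, *Clu*, and *Havcr1* are called lower in males than in females.

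*Havcr1* had by far the widest spread among females. LP females 1 and 2 and NP female 3 had 1.61, 3.45, and 5.33 CPM, from 35 to 75 counts. LP females 3, 4, and 5 had 319.6, 99.4, and 97.9 CPM and NP females 1 and 2 had 186 and 155 CPM, from 1635 to 6192 counts. The highest female level was 199 times the lowest, against 10.8 times in males, and both diets had libraries at each end. The 3 low libraries were those that stood apart over all genes, which is a split found in the data and not a group of the study, so their values are given without a test. With all females the log2 fold change between diets was -0.14 (SE 1.43), and without those 3 libraries it was 0.03 (SE 0.51, unadjusted p = 0.961, edgeR).

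*Timp1* fell into the same pattern. It had 20 counts in LP female 1, 5 counts in LP female 2, and 0 counts in NP female 3, which allows a level of up to 0.213 CPM by counting error alone. Those are 0.920, 0.247, and 0 CPM, against 4.05 to 6.25 CPM in the other 5 females. The remaining genes were not split as cleanly. *Lcn2* was at 8.34 to 13.7 CPM in the 3 libraries, at 9.55 CPM in NP female 2, and at 31.7 to 51.6 CPM in the other females. *Clu* was at 188 to 298 CPM in the 3, at 254 CPM in NP female 2, and at 315 to 375 CPM in the other females. *Krt18* was at 33.3 CPM in NP female 3, near the highest female value of 36.3, and *Spp1* was at 1395 CPM there, above the 1148 CPM of NP female 1. LP female 2 was among the lowest 3 of the 8 females for all 10 genes.

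Other gene lists differed in the same 3 libraries. Summed over 10 interferon response genes, the level was 136 to 193 CPM in them and 974 to 3624 CPM in the other females. Summed over 8 glucocorticoid response genes it was 318 to 679 CPM against 1277 to 1792 CPM. For 28 genes of injured proximal tubule cells it was 777 to 972 CPM against 1681 to 1907 CPM, and for 19 inflammatory and matrix genes of injury 215 to 286 CPM against 652 to 788 CPM. Neutrophil markers summed to 1.49 to 5.72 CPM against 9.13 to 27.7 CPM, with 4 to 7 of 10 at 0, and *S100a9*, their most abundant gene, had 0 counts in NP female 3. Males had 794 to 1627 CPM of the interferon genes and 673 to 1073 CPM of the glucocorticoid genes, and *Havcr1* between 4.15 and 44.9 CPM. The part of these programs in the *Havcr1* and *Timp1* values was not tested.

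**Figure D4:**
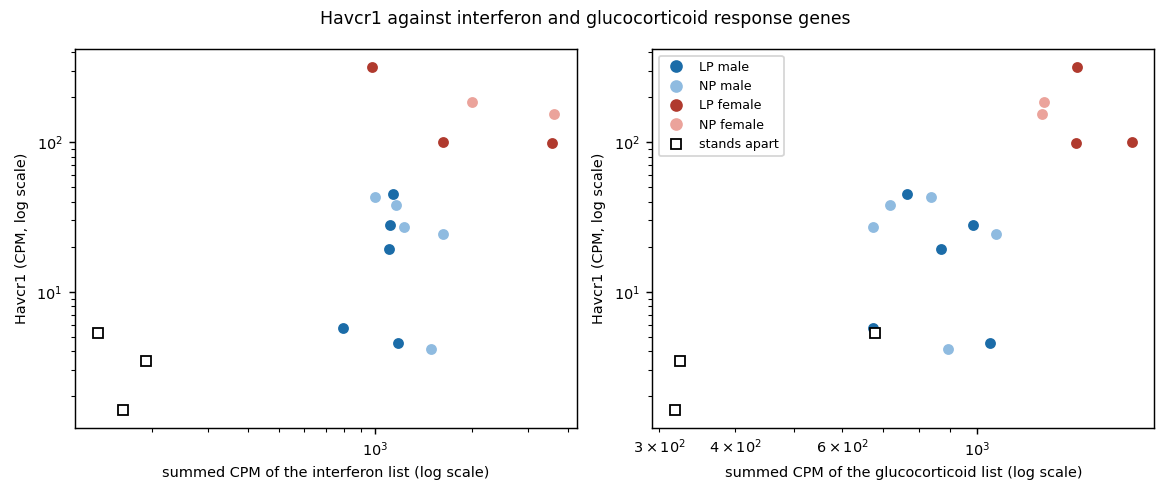
*Havcr1* in CPM (vertical axes) against the summed CPM of 10 interferon response genes (left) and of 8 glucocorticoid response genes (right) in the 18 libraries, all axes on a log scale; open squares are LP female 1, LP female 2, and NP female 3. The open squares are lowest on the interferon axis, at 136 to 193 CPM, and 5 other females are highest on the glucocorticoid axis, at 1277 to 1792 CPM.

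The effect of diet was then compared between the sexes as an interaction. None of the 7 genes tested was called, against 0.0158% of 12665 genes, and none had an unadjusted p under 0.05 in edgeR. DESeq2 had 1 gene under 0.05, *Krt18*, limma-voom 1, *Krt8*, and neither called a gene. *Krt18* had the lowest p in edgeR, with a difference in log2 fold change, female minus male, of -0.94 (SE 0.46, unadjusted p = 0.0554). For *Spp1* it was -0.44 (SE 0.29), for *Lcn2* -0.62 (SE 0.76), and for *Clu* -0.05 (SE 0.24). The differences between LP and NP males in *Lcn2*, *Spp1*, and *Clu*, none of them called, were thus not shown to differ from those between LP and NP females. *Timp1* was left out of this test because it had under 10 counts in 2 of the 18 libraries. With the minimum set on the mean count instead, its difference over all libraries was -1.02 (SE 1.09, unadjusted p = 0.362, edgeR). Without the 3 libraries that stood apart it was -0.998 (SE 0.40, unadjusted p = 0.0255, adjusted p = 0.9994, edgeR). Those 3 had the lowest *Timp1* of the females, so this value depends on their removal.

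Between the sexes, 3 of the 7 genes tested, *Spp1*, *Clu*, and *Havcr1*, were called, all lower in males. Over all genes tested 20.4% were called lower and 18.2% higher in males. Since female kidneys were collected later after the last injection, these differences cannot be told apart from collection time.

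*Spp1* was between 221 and 589 CPM in the 10 males, with a median of 402 CPM, and between 1148 and 1868 CPM in the 8 females, with a median of 1445 CPM. Every male lay below every female. The log2 fold change was -1.82 (adjusted p = 4.90e-08 by edgeR, SE 0.15), or 3.52-fold lower in males. Within LP mice it was -1.58 (SE 0.18) and within NP mice -2.02 (SE 0.22), and it was called in both. The exact permutation p was 0.00794 within LP mice and 0.0179 within NP mice, each the smallest possible. *Spp1* was called in 18 of 18 fits with 1 library left out. The gene *Gm42793*, which overlaps *Spp1* on the same strand, had at most 30 counts.

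*Clu* was between 135 and 213 CPM in males, with a median of 174 CPM, and between 188 and 375 CPM in females, with a median of 307 CPM. The groups overlapped only through LP female 2, the lowest female. The log2 fold change was -0.75 (adjusted p = 0.000119 by edgeR, SE 0.12), or 1.68-fold lower in males, and it was called in 18 of 18 fits with 1 library left out and within each diet alone. Without the 3 libraries that stood apart it was -0.90 (SE 0.09). Among those 3 were LP female 2 and NP female 3, the females with the lowest *Clu*. Leaving them out raises the female level, so the larger difference adds no evidence.

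*Havcr1* was between 4.15 and 44.9 CPM in males and between 1.61 and 319.6 CPM in females, and the sexes overlapped at the low end. Its log2 fold change was -2.21 (adjusted p = 0.0358 by edgeR, SE 0.80), or 4.63-fold lower in males. This call held in 9 of 18 fits with 1 library left out, and the adjusted p reached 0.0923 among the others, which were those without LP male 1, 2, or 3, NP male 2, 3, or 5, LP female 3, or NP female 1 or 2. It was not called within LP mice (adjusted p = 0.178 by edgeR, log2 fold change -2.32, SE 1.12) or within NP mice (adjusted p = 0.134 by edgeR, -2.07, SE 0.87). Without the 3 libraries that stood apart it was -2.85 (adjusted p = 0.000423 by edgeR, SE 0.50), and every male lay below every one of the 5 remaining females. Those 3 had the lowest *Havcr1* of the females, so the smaller p and the separation follow from their removal and add no evidence.

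Of the genes not called, *Lcn2* had a log2 fold change of -0.36 (SE 0.38), *Krt8* 0.18 (SE 0.13), *Krt18* -0.16 (SE 0.23), and *Krt19* 0.56 (SE 0.43). *Timp1* and *Sox9* were left out because each had under 10 counts in 2 of the 18 libraries. At a mean count of at least 10 with all libraries *Timp1* had -0.14 (SE 0.55) and *Sox9* -0.89 (adjusted p = 0.068 by edgeR, SE 0.37). Without the 3 libraries that stood apart *Timp1* was called lower in males with -0.77 (adjusted p = 0.00722 by edgeR, SE 0.20). Those 3 had the lowest *Timp1* of the females, so leaving them out raises the female level, and this call is a description.

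Of the partners and relatives, 18 were tested between the sexes, of which 2 were called higher and 3 lower in males by edgeR, 2 and 4 by DESeq2, and 2 and 5 by limma-voom. *Timd2*, a relative of *Havcr1*, was higher in males by a log2 fold change of 3.18 (adjusted p = 9.76e-09 by edgeR, SE 0.23), the opposite direction to *Havcr1*. *Timp3*, a relative of *Timp1*, was higher by 0.72 (SE 0.10). *Slc22a17*, a receptor for the *Lcn2* protein, was lower by 0.40 (log2 fold change -0.40, SE 0.09), and *Itgb5*, part of an integrin that binds osteopontin, had -0.36 (SE 0.09). Of 27 tested genes of injured proximal tubule cells, 4 were called in each direction by edgeR and DESeq2, and 3 higher and 9 lower by limma-voom. *Prom1*, a membrane protein of progenitor-like and repairing tubule cells, had -2.28 (SE 0.11), and *Il34*, a ligand of the macrophage colony stimulating factor receptor, 1.48 (SE 0.30). Of 12 tested inflammatory and matrix genes of injury, edgeR called complement *C3*, with -1.40 (adjusted p = 0.0029 by edgeR, SE 0.33), DESeq2 also called 1 gene, and limma-voom called 5, all lower in males. None of 8 interferon genes was called or had an unadjusted p under 0.05 in edgeR and DESeq2, while limma-voom called 1 lower in males.

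Markers of other cell types moved between the sexes too. Of 7 tested collecting duct genes 5 were called lower in males, with *Hsd11b2* at -0.85 (SE 0.14) and *Gata3* at -0.67 (SE 0.12). The list's summed level, in which *Calb1* was the most abundant gene, was 740 to 1355 CPM in males and 1320 to 1573 CPM in females. Of 11 tested genes of the loop of Henle and inner medulla 4 were called lower and 1 higher by edgeR and DESeq2, and 8 lower and 1 higher by limma-voom. Of 8 macrophage genes edgeR called 3 lower, all of them C1q subunits, DESeq2 4, and limma-voom 2. Of 7 glucocorticoid response genes 3 were called lower by edgeR and DESeq2 and 4 by limma-voom, with *Sgk1* at -1.84 (SE 0.28) in edgeR. Of 12 proximal tubule genes 4 were called higher and 1 lower, with *Slc22a6* at 2.13 (SE 0.13) and *Slc22a8*, another organic anion transporter, at -1.69 (SE 0.12). Of 6 stromal and 3 urothelium genes tested, none was called or had an unadjusted p under 0.05 in edgeR and DESeq2, while limma-voom called 1 stromal gene lower. The part of these cell types in the *Spp1* and *Clu* values was not tested.

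*Krt19* and *Krt20* varied from library to library more than from group to group. *Krt19*, a keratin of ducts and urothelium, was highest in NP male 3 with 14.4 CPM, LP male 4 with 13.7 CPM, and NP female 2 with 9.60 CPM, against 1.49 to 8.06 CPM in the other 15 libraries. *Krt20*, a keratin of the surface cells of the urothelium, was highest in the same 3 libraries, with 3.02, 1.71, and 2.22 CPM, and at 0 counts in NP male 4, NP male 5, and NP female 3, which allows up to 0.203, 0.175, and 0.213 CPM. The summed level of 8 urothelium markers was also highest in these 3 libraries, at 142, 108, and 86.4 CPM, against 9.86 to 69.3 CPM in the others, and none of the 8 was at 0 in any library. The libraries came from both diets and both sexes, and *Krt19* was not called between diets (male log2 fold change -0.02, SE 0.55, unadjusted p = 0.97; female -0.75, SE 0.51, unadjusted p = 0.18, edgeR). The part of urothelium in the *Krt19* and *Krt20* values was not tested.

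**Figure D5:**
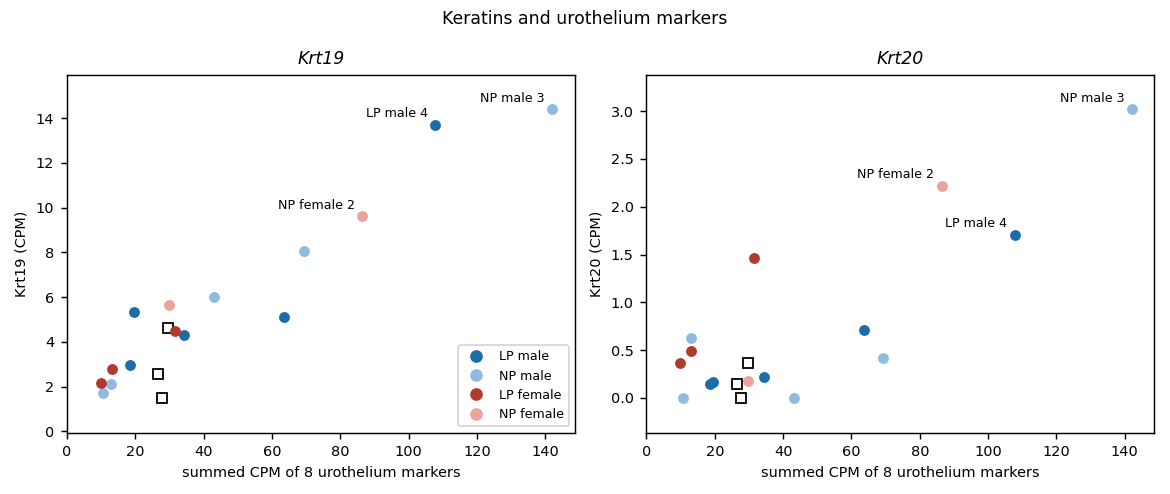
*Krt19* (left) and *Krt20* (right) in CPM (vertical axes) against the summed CPM of 8 urothelium markers (horizontal axes) in the 18 libraries, coloured by group with the legend in the left panel; open squares are LP female 1, LP female 2, and NP female 3. NP male 3, LP male 4, and NP female 2, at 86.4 to 142 CPM of urothelium markers, hold the 3 highest values of both genes.

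Genes whose pattern over the 18 libraries was most like that of each gene were found by Pearson correlation of log2 levels after group means were removed. These are descriptions over 18 libraries that share depth and the split of the females. For *Havcr1* they were *Ugt3a2* (r = 0.92), *Slco2a1* (r = 0.91), and *Ddb1* (r = 0.91), which over the 10 males alone had r = 0.70, 0.74, and 0.63. For *Lcn2* they were *Mapkapk2*, *Slc45a4*, and *Kcnk1* (r = 0.87 to 0.88). For *Krt8* they were *Capg*, *Krt7*, and *Creb3*, and *Krt7*, another simple epithelial keratin, had r = 0.87 and 0.97 over the males alone. For *Krt18* they were *Ppp1r13l*, *Sdc1*, and *Krt23*, the last also a keratin (r = 0.83). For *Krt19* they were *Upk3a* (r = 0.90), which encodes a uroplakin of the urothelium, *S100a6*, and *Pygb*. For *Spp1* they were *Cdkn2b*, *Ncf1*, and *Cldn4* (r = 0.80 to 0.82), and for *Clu* *Slc26a4*, *Gtf2a1*, and *Arf3* (r = 0.80 to 0.85).

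No correlation was computed for *Krt20*, *Sox9*, and *Timp1*, which had under 10 counts in some libraries. Among the 21 pairs of the other 7 genes, the closest over the 10 males was *Krt18* and *Krt19* (r = 0.85), while *Krt8* and its partner *Krt18* had r = 0.66. *Havcr1* and *Lcn2*, the urinary marker genes, had r = 0.37 over the males and 0.64 over all 18 libraries. *Havcr1* and *Spp1* had r = 0.09 over the males and *Lcn2* and *Clu* 0.04.

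All 10 genes are protein coding in GENCODE vM39, and positions on GRCm39 are as follows. *Havcr1* (ENSMUSG00000040405.14) lies on chromosome 11 from 46625907 to 46670405, *Spp1* (ENSMUSG00000029304.15) on chromosome 5 from 104582165 to 104589235, *Clu* (ENSMUSG00000022037.16) on chromosome 14 from 66190200 to 66218999, *Lcn2* (ENSMUSG00000026822.15) on chromosome 2 from 32274645 to 32278264, and *Timp1* (ENSMUSG00000001131.12) on chromosome X from 20736316 to 20740976. *Krt8* (101905133 to 101912917) and *Krt18* (101936615 to 101940462) are neighbours on chromosome 15. *Krt20* (99319227 to 99328985), *Krt19* (100031636 to 100039491), and *Sox9* (112673009 to 112678586) are on chromosome 11. A processed pseudogene of *Krt8* had at most 20 counts in a library, and the other genes that overlap *Krt8*, *Krt19*, *Clu*, or *Sox9* had at most 20.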

How the data were processed

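The values that the authors deposited are raw read counts for each gene and mouse; they trimmed reads of poly(A) non-directional libraries, aligned them to GRCm39 with STAR and GENCODE vM36, and counted them. The column without regard to strand was used. Gene positions and exonic lengths are from GENCODE vM39. Rows for reads not assigned to a gene (28.6% to 36.1% of a library's reads) were left out. Counts were scaled by TMM to CPM. Groups were compared in edgeR 4.0.16 under R 4.3.3, by its quasi-likelihood test, on genes that reached 10 counts in each library of the fit, with Benjamini-Hochberg adjustment over all of them; a gene was called at an adjusted p under 0.05. The sexes and the interaction were fitted in 1 model of the 4 groups. SE is the log2 fold change divided by the square root of F. Single genes were tested by exact two-sided permutation on log2(normalized count + 1), 40 tests over 10 genes and 4 comparisons (diet within sex and sex within diet), with p-values left unadjusted. DESeq2 1.42.0 and limma-voom (limma 3.58.1) were alternatives, and scripts were tested on simulated data. Tables were handled in Python 3.11.15, with pandas 2.3.3, numpy 2.4.6, and scipy 1.17.1.

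The 10 genes and the other lists were chosen with earlier results of these data known. In other lists, up to 4 called genes with the smallest adjusted p, or up to 2 with the smallest p where none was called, could be named; *Timp2* and *Timp3* in males and *S100a9*, *Mpo*, and *Elane* were named after their values were seen. Intervals for a count of 0 allow 3 counts and cover counting error only. The design text speaks of whole kidney and the methods of a piece of the left kidney.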

Additional observations from a re-analysis of the deposited data

Results flagged for a closer look

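In groups of 4 or 5 libraries, 30 combinations of gene and group were searched for a library whose gap to the next, divided by the whole range, passed Dixon's critical value of 0.71. Of these, 4 were marked. The critical value marks about 1 in 20 where values are normally distributed, which CPM of genes with few counts need not be. The number marked is therefore a description. *Krt19* in LP male 4 was at 13.7 CPM, against 2.95 to 5.31 CPM in the other LP males. *Krt20* in NP male 3 was at 3.02 CPM, against 0 to 0.628 CPM in the other NP males. *Krt20* in LP female 5 was at 1.46 CPM, from 36 counts, against 0.148 to 0.486 CPM in the other LP females. LP male 4 and NP male 3 were also the males with the most urothelium marker RNA, with 108 and 142 CPM. LP females 1 to 5 had 29.6, 26.6, 9.86, 13.1, and 31.5 CPM of it, so LP female 5 was little above LP females 1 and 2. *Timp1* in LP male 2 was at 5.46 CPM, against 3.05 to 3.70 CPM in the other LP males, and without that mouse *Timp1* was still higher in LP males, by a log2 fold change of 0.69 (unadjusted p = 0.02, edgeR). The cause of these values was not tested.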

How the results depend on the processing

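No alternative called any of the 10 genes between diets or in the interaction. Under all 4 groups in 1 model, 2 rather than 4 genes had an unadjusted p under 0.05 in males, *Lcn2* and *Spp1*. That model tested 7 genes and left out *Timp1*, which had under 10 counts in some female libraries. Without LP males 4 and 5 the number was also 2, *Havcr1* and *Timp1*. With 1 male left out it was 3 to 4. Between the sexes 2 to 3 genes were called with 1 library left out, 2 within each diet alone, and 4 without the 3 libraries that stood apart. Those 3 had the lowest *Havcr1* and *Timp1* of the females. Single-gene permutation tests gave 7 p-values under 0.05, 10 with the library total, and 6 to 10 with 1 library left out. Without those 3 libraries, a setting chosen after seeing the data, they gave 11. The 7 were *Timp1*, *Lcn2*, and *Spp1* between diets in males, and *Spp1* and *Clu* between the sexes within each diet. Of all genes tested between the sexes, edgeR called 20.4% lower and 18.2% higher in males. The permutation tests were run on the 10 genes alone, so no share over all genes was available and these counts are a description. The replicate numbers did not pair the mice: libraries with the same number had correlations of -0.285 to 0.314 in males and -0.593 to -0.381 in females. With the replicate number as a block, 0 genes were called between diets and 3 between sexes; *Krt18* in females was then -0.71 with an unadjusted p of 0.0529.

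Directions turned only for uncalled genes. With sample quality weights, *Krt8* became 0.16 and *Krt19* 0.17 in males, *Sox9* -0.024 in females, and *Krt8* -0.047 between sexes. With the replicate block, *Krt19* became 0.067 in males, *Spp1* -0.011 and *Sox9* -0.21 in females, and *Havcr1* -1.41 in the interaction. *Krt18* became -0.14 without LP males 4 and 5 and 0.33 between sexes in LP mice alone. Without the 3 libraries, *Havcr1* became 0.026 in females and *Clu* 0.045 in the interaction. With 1 library left out, log2 fold changes ran in males from -0.11 to 0.096 for *Krt8* and from -0.54 to 0.50 for *Krt19*; in females from -1.18 to 0.38 for *Havcr1*, -0.32 to 0.043 for *Krt8*, -0.017 to 0.27 for *Spp1*, and -0.080 to 0.37 for *Sox9*; in the interaction from -0.79 to 0.78 for *Havcr1*, -0.94 to 0.20 for *Lcn2*, -0.33 to 0.036 for *Krt8*, and -0.15 to 0.095 for *Clu*; and between sexes from -0.62 to 0.047 for *Lcn2*. The cause of these turns was not tested. *Krt20*, *Sox9*, and *Timp1* fell under 10 counts in some libraries and could not be tested there.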

Other observations

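Genes of the cell cycle, which mark dividing cells, had 5 tested members in males, all with a positive log2 fold change and 3 with an unadjusted p under 0.05, higher in LP males, among them *Mcm2* with 0.38 (SE 0.14) and *Mki67* with 0.85 (SE 0.33). The interaction for *Mki67* was -1.17 (SE 0.47), and none of the list was called between diets by edgeR, DESeq2, or limma-voom. Between the sexes 4 of 5 tested cell cycle genes were called lower in males, among them *Mcm5* with -0.92 (SE 0.22) and *Top2a* with -0.88 (SE 0.23). Among 10 interferon genes tested in males, *Irf7* and *Ifit1* had an unadjusted p under 0.05, with log2 fold changes of -0.40 (SE 0.15) and -0.46 (SE 0.18).

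Acute phase genes, a group to which *Lcn2* also belongs in the inflamed liver, had 0 called members between diets by the 3 tools and 0 with an unadjusted p under 0.05 in edgeR (1 in DESeq2, in males), and *Saa3* had log2 fold changes of 0.95 (SE 0.48) in males and 1.17 (SE 0.76) in females. Fat markers summed to 224 CPM in LP female 5, 187 CPM in NP female 3, and 79.7 CPM in LP male 4, against 4.09 to 46.0 CPM in the other libraries. Globin and other red blood cell genes summed to 10.7 to 161 CPM, highest in NP female 1.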
